A study of Mus musculus with 18 samples.

Results

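HOXC9 and HOXC10 are the Hox proteins of the thoracic and the lumbar spinal cord, and both belong to the posterior Hox proteins related to fly Abd-B. Neurons in which doxycycline (Dox) had switched on Hoxc9 (iHoxc9 neurons, 3 libraries) were compared across all genes with neurons in which it had switched on Hoxc10 (iHoxc10 neurons, 3 libraries), and these 6 libraries were all that the series holds of both lines among its 18. Both lines are mouse embryonic stem cells of the Ainv15 background, Ainv15(iFlag.Hoxc9) and Ainv15(iFlag.Hoxc10), with 1 transgene copy behind a Dox-responsive promoter at the Hprt locus, so the Hox protein also carried an N-terminal Flag tag. Embryoid bodies of both were patterned with retinoic acid and a Smoothened agonist, received 3 µg/ml Dox on day 2, and were collected on day 4 after 48 h of Dox. The mixture was mostly postmitotic motor neurons with interneurons, and in such bulk RNA fewer cells of a type and less RNA per cell cannot be told apart. Each Hox gene was induced in 1 line, so the gene and the line cannot be told apart either. The libraries of both lines came from the same sequencing run. Control neurons, which serve here only as a reference level, came from the iHoxc6 line on day 4 without Dox, and from another run, so the comparison of either line with them also contains the line and the run.

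Hox genes lie in 4 clusters, and their order along a cluster, from paralog group 1 to 13, follows the order in which they are expressed from the hindbrain to the tail. In the spinal cord their proteins assign motor neurons to columns. At limb levels neurons of the lateral motor column innervate the limb, and their thoracic counterparts innervate the body wall and the sympathetic ganglia. HOXC9 is known as the protein that keeps the limb programme out of the thoracic cord, and HOXC10 as a protein of the hindlimb level.

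The homeobox of each induced gene is shown because its 60 codons encode the DNA-binding domain, the part of the protein that contacts target genes. The homeobox of Hoxc9 lies in exon 3 (GRCm38, chr15:102983930-102984109, plus strand) and that of Hoxc10 in exon 2 (chr15:102970848-102971027, plus strand), both in coding sequence. Capitals mark the codons that encode a different residue in the other gene, read from the GENCODE transcripts 5′ to 3′.
Hoxc9 homeobox: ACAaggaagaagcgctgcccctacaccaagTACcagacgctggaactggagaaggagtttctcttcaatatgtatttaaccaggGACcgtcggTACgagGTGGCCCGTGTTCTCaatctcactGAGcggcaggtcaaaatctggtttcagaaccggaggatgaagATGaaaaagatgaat
Hoxc10 homeobox: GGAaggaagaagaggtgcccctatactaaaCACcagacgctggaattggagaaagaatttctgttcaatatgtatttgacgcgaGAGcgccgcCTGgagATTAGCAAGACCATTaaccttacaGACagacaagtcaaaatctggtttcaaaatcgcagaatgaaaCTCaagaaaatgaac
The sequences encoded the same residue at 49 of 60 positions (81.7%) and differed at 51 of 180 bases (71.7% identical). Of the 11 codons in capitals, 3 fell in the first 30 codons and 8 in the last 30. A further 26 codons differed in their bases and not in the residue.

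Each line expressed its own gene. Hoxc9 (chromosome 15, 102977032 to 102984444, GRCm38) stood at 224, 236 and 213 CPM (reads scaled to library size by edgeR's TMM factors) in the 3 iHoxc9 libraries and at 0.0700, 0.0358 and 0.0810 CPM in the 3 iHoxc10 libraries. Hoxc10 (chromosome 15, 102966796 to 102971898) stood at 0, 0.353 and 0.0398 CPM in iHoxc9 and at 432, 425 and 433 CPM in iHoxc10. The libraries of the lines did not overlap for either gene, and every library matched its label. The log2 fold change (iHoxc9 minus iHoxc10, here and throughout) was 11.73 (standard error 0.26, edgeR adjusted p = 3.4e-17) for Hoxc9 and -11.43 (standard error 0.40, edgeR adjusted p = 1.78e-10) for Hoxc10. With DESeq2's Wald test the adjusted p of Hoxc10 was 0.0377. Only 13 of its counts lay in the iHoxc9 libraries, most of them in the second library. Per kilobase of annotated exon the induced gene was at 94.5 CPM in iHoxc9 and at 225 CPM in iHoxc10. The length of the transgene transcripts is not given in the sources used here, so these levels do not rank the amounts of Hox mRNA in the lines. Reads from the transgene and from the endogenous copy were counted together.

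Total counts of the 6 libraries ran from 24498630 to 32528354, at which 3 counts correspond to 0.0883 to 0.122 CPM, a limit of counting error only. Replicate libraries had a Pearson's r of 0.997 to 0.999 across genes, which are not independent replicates. The chi-square per degree of freedom between replicate libraries was 8.72 to 17.9 within iHoxc9. Within iHoxc10 it was 33.8 and 23.99 for the pairs with the third library and 13.3 for the other pair. A gene was called where its adjusted p was under 0.01 and its level differed by more than 2 on the log2 scale. Of 20944 genes tested, 274 (1.31%) were called, 149 (0.711%) with the higher level in iHoxc9 and 125 (0.597%) in iHoxc10. At the adjusted p alone (4.99% in either direction), the threshold used for the gene lists below, 544 genes (2.6%) were higher in iHoxc9 and 502 (2.4%) in iHoxc10. Among the 13012 genes with a mean of at least 1 CPM in these libraries, to which most list members belong, the shares were 7.02% in either direction, 3.57% higher in iHoxc9 and 3.45% higher in iHoxc10. All 3 libraries of a line lay above all 3 of the other in each of the 274 called genes, as they did in 31% of all genes and in 41.3% of those with at least 1 CPM. The median log2 fold change over all genes was 0.03. With the replicate number as a block, 267 genes were called, and 922 passed the adjusted p alone. A paired fit of only these 6 libraries called 356 and passed 5807 at the adjusted p alone. That fit had 2 residual degrees of freedom, and edgeR then gave every gene the spread of the common trend, so its counts for gene lists are given beside the main counts as an upper reading.

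**Figure D1:**
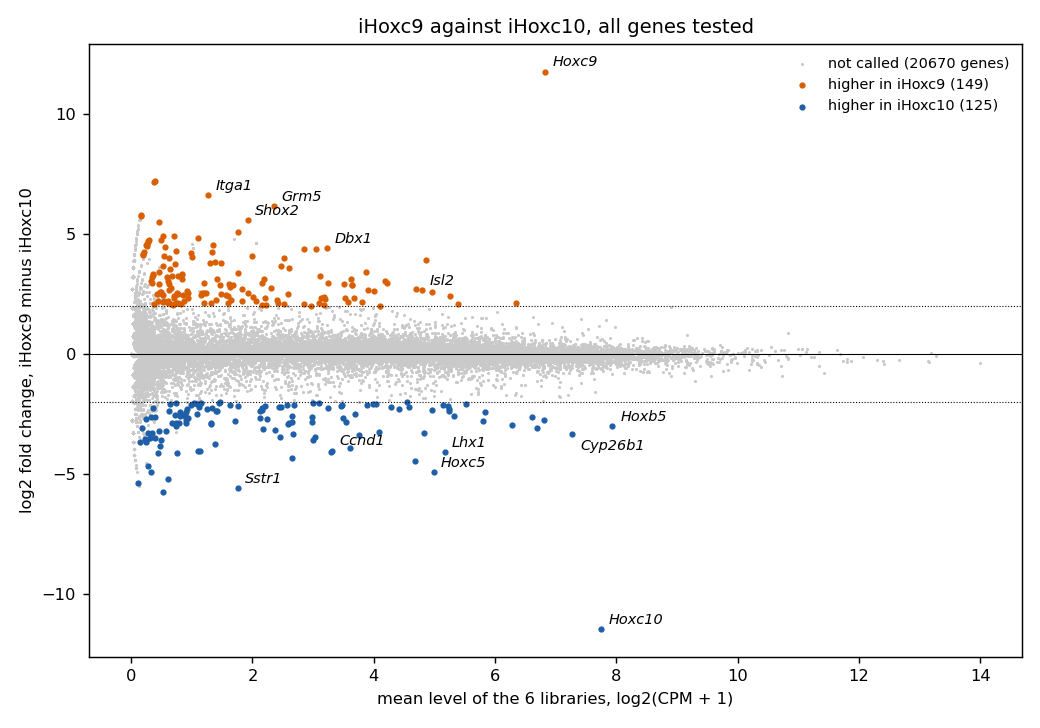
Each point is 1 of 20944 genes, with the mean level of the 6 libraries (log2(CPM + 1)) on the x axis and the log2 fold change of iHoxc9 minus iHoxc10 on the y axis; dotted lines mark 2 and -2. The 149 called genes above and 125 below are colored, and Hoxc9 and Hoxc10 lie far outside the rest at 11.73 and -11.43.

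The anterior Hox genes were lower in iHoxc9. Of the 15 genes of paralog groups 1 to 5, which pattern the hindbrain and the cervical cord, 14 were higher in iHoxc10 at the adjusted p, against 2.4% of all genes, and 0 were higher in iHoxc9 by edgeR, by DESeq2 or at an unadjusted p under 0.05. The median of the 15 was -2.32, and 8 passed the fold change threshold as well. Hoxc5 (chromosome 15, 103014008 to 103017429), a neighbor of the induced genes in the HoxC cluster, stood at 1.99, 2.38 and 1.51 CPM in iHoxc9 and at 55.1, 60.7 and 62.6 CPM in iHoxc10. All iHoxc9 libraries lay near 2 CPM and all iHoxc10 libraries above 55. Its log2 fold change was -4.90 (standard error 0.19, edgeR adjusted p = 5.03e-14). Control libraries held 204, 192 and 191 CPM, so Hoxc5 was below control in both lines, at -6.62 from it on the log2 scale in iHoxc9 (edgeR adjusted p = 2.75e-16) and at -1.72 in iHoxc10 (edgeR adjusted p = 6.12e-08).

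Hoxa4 was at 3.83, 5.83 and 5.69 CPM in iHoxc9 and at 41.3, 51.7 and 55.4 CPM in iHoxc10, with a log2 fold change of -3.27 (standard error 0.20, edgeR adjusted p = 1.44e-10). For Hoxb5 the levels were 43.2, 59 and 58 CPM and 326, 392 and 577 CPM, spread widely within iHoxc10 and without overlap (-3.01, edgeR adjusted p = 1.58e-09). Hoxc4, next to Hoxc5, was at 24.7, 33.7 and 28 CPM and 199, 204 and 176 CPM (-2.74, edgeR adjusted p = 7.8e-12). The other called genes of these groups were Hoxd1 (-2.86), Hoxa5 (-2.61), Hoxa3 (-2.38) and Hoxb4 (-2.14). Below the fold change threshold were, among others, Hoxa2 (-1.49), Hoxd3 (-1.47), Hoxd4 (-1.31), Hoxb3 (-1.30) and Hoxb2 (-1.07), with edgeR adjusted p of at most 0.000103. Hoxb1, with means of 0.0231 and 0.134 CPM, was too low to test well (-2.32, edgeR adjusted p = 0.329). Hoxa3, Hoxa4, Hoxa5, Hoxb3, Hoxb4, Hoxd3 and Hoxd4 overlap annotated neighbors, and their reads are uncertain where the counting could have split them.

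Beside control, these genes did not stand at the same place in the 2 lines. Hoxa5 was -2.43 from control in iHoxc9 (edgeR adjusted p = 1.17e-10) and 0.18 in iHoxc10 (edgeR adjusted p = 0.398). Hoxb5 was -2.85 and 0.17, with edgeR adjusted p of 1.57e-09 and 0.589. Hoxb4 was below control in both, at -3.32 and -1.18 (edgeR adjusted p = 8.67e-13 and 4.05e-06). Hoxa3 was -1.65 in iHoxc9 and 0.73 in iHoxc10 (edgeR adjusted p = 3.37e-08 and 0.000765), so it lay on either side of control. Both columns of values share the same 3 control libraries.

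**Figure D2:**
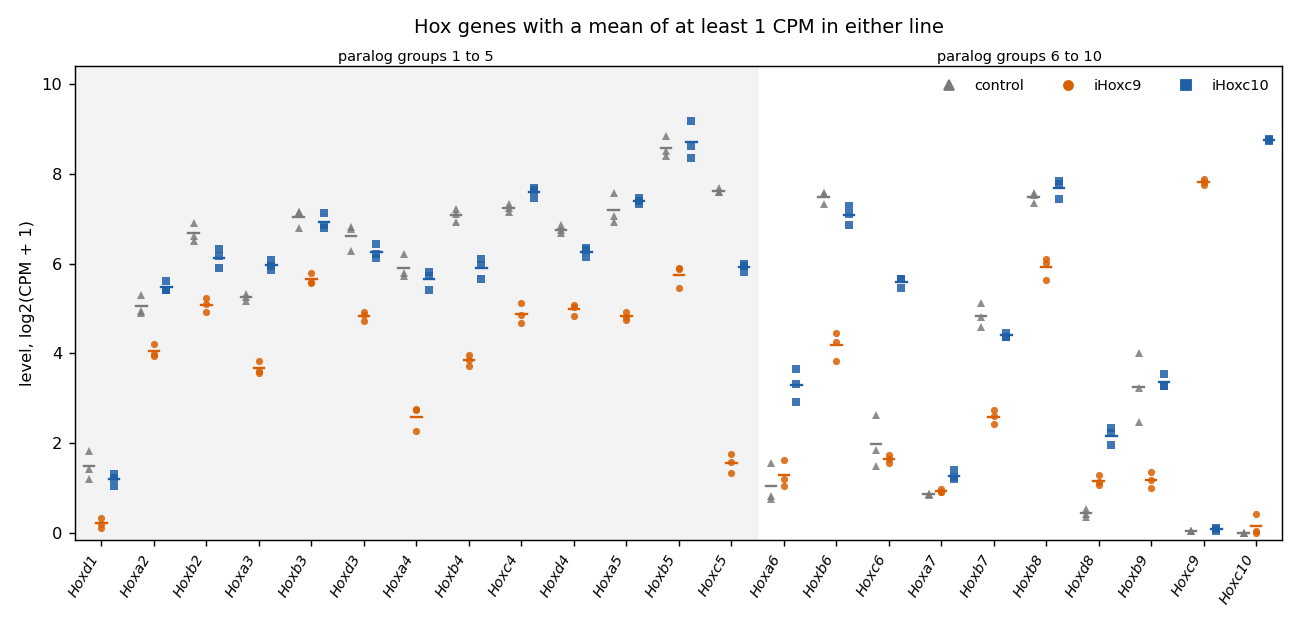
Levels (log2(CPM + 1), y axis) of Hox genes with a mean of at least 1 CPM in either line; each point is 1 library, bars are means of 3, with control in grey, iHoxc9 in orange and iHoxc10 in blue. The orange points lie below the blue points in every gene drawn but Hoxc9, and below the grey points in every gene drawn of groups 1 to 5.

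Among the central and posterior groups 6 to 13, 17 of 24 genes had enough counts to be tested. Apart from Hoxc9 and Hoxc10 themselves, 7 were higher in iHoxc10 and 0 in iHoxc9 at the adjusted p. Hoxc6 (chromosome 15, 102998226 to 103011882), the brachial gene of the cluster, was at 1.96, 2.33 and 2.15 CPM in iHoxc9 and at 49.4, 49.4 and 43.1 CPM in iHoxc10, against 5.17, 2.58 and 1.8 CPM in control. Only the iHoxc10 libraries stood high, and the log2 fold change between the lines was -4.46 (standard error 0.27, edgeR adjusted p = 1.44e-10). It was -0.58 from control in iHoxc9 (edgeR adjusted p = 0.135) and 3.88 in iHoxc10 (edgeR adjusted p = 8.43e-10). Hoxb6 was at 13.2, 21 and 18.2 CPM in iHoxc9 and at 115, 136 and 155 CPM in iHoxc10 (-2.95, edgeR adjusted p = 1.91e-09). Hoxb9 (1.28 against 9.32 CPM, -2.84) and Hoxa6 (1.49 against 9.05 CPM, -2.58) were also called, while Hoxb7 (-1.99) and Hoxb8 (-1.78) passed the adjusted p only. Hoxd8, another such gene, was low in both lines (1.26 against 3.53 CPM, -1.49), and its adjusted p was 0.0169 without the second iHoxc9 library and above 0.01 without any of 3 others. Hoxc8, the gene between Hoxc9 and Hoxc6 in the cluster, had means of 0.102 and 0.266 CPM (-1.47, edgeR adjusted p = 0.181). Hoxa7 was -0.66 (edgeR adjusted p = 0.268). Hoxa10, Hoxb13, Hoxc12, Hoxc13, Hoxd9 and Hoxd13 had no more than 0.0239 CPM on average in either line, under the level of 3 counts.

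PBX and MEIS proteins are the homeodomain partners with which Hox proteins bind DNA. Of 11 cofactor genes, 4 were higher in iHoxc10 and 0 in iHoxc9 by edgeR, all below the fold change threshold, while DESeq2 passed 1 in iHoxc9 and an unadjusted p under 0.05 was reached by 3. Pbx3 was at 103, 99.9 and 96.1 CPM in iHoxc9 and at 347, 286 and 265 CPM in iHoxc10 (-1.58, edgeR adjusted p = 6.95e-08). Among the others were Meis1 (-0.63) and Pknox2 (-0.91), the second with an adjusted p of 0.0173 without the first iHoxc9 library and 0.0135 without the third. Meis2 (-0.39, edgeR adjusted p = 0.114), Pbx2 (0.18, edgeR adjusted p = 0.459) and Meis3 (-0.06, edgeR adjusted p = 0.889) did not pass. The paired fit of the 6 libraries passed 5 genes higher in iHoxc10 and 3 higher in iHoxc9.

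The general genes of motor neurons were expressed in both lines, at unequal levels. Of 16 genes of motor neuron identity, 3 were higher in iHoxc9 and 5 in iHoxc10 at the adjusted p, with a median of -0.39. Isl2 (chromosome 9, 55538677 to 55547667), a LIM homeodomain factor of postmitotic motor neurons, was the only one called. It stood at 48.7, 42.1 and 48.4 CPM in iHoxc9 and at 6.09, 7.13 and 9.12 CPM in iHoxc10, with 40.5, 46.2 and 49.6 CPM in control. The iHoxc9 libraries thus lay within the range of the control libraries, and the iHoxc10 libraries far below both (log2 fold change 2.64, standard error 0.24, edgeR adjusted p = 7.04e-08). Lhx4, which acts with Lhx3 in the factors of medial column neurons, showed the same order, with 54.6, 51.5 and 49.3 CPM in iHoxc9, 15.5, 14.8 and 18.7 CPM in iHoxc10 and 46.5, 53.3 and 55.1 CPM in control (1.67, edgeR adjusted p = 6.4e-06). Its close relative Lhx3 was at 30.7 against 22.2 CPM and did not pass (0.47, edgeR adjusted p = 0.203). Neurog2, the proneural factor of motor neuron progenitors, was higher in iHoxc9 (99.2 against 29.6 CPM, 1.74, edgeR adjusted p = 2.72e-05).

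The other members of the list that passed were higher in iHoxc10. Prph, which encodes the intermediate filament peripherin, was at 11.8, 15.8 and 12.3 CPM in iHoxc9 and at 31.6, 40.7 and 36.9 CPM in iHoxc10, against 163, 112 and 156 CPM in control. Both lines were below control, and iHoxc9 lay below iHoxc10 (-1.45, edgeR adjusted p = 4.09e-05). Slc18a3, the vesicular acetylcholine transporter, was at 128 against 267 CPM (-1.06, edgeR adjusted p = 0.000557). Chat, the acetylcholine-synthesizing enzyme whose gene overlaps Slc18a3, was -1.14, and Isl1, the LIM factor shared by motor and sensory neurons, was -1.27. Mnx1, which marks all somatic motor neurons, was -0.71. These last 3 passed by a narrow margin. Without the second iHoxc9 library the edgeR adjusted p was 0.0145 for Chat, 0.0175 for Isl1 and 0.0463 for Mnx1. For Mnx1 it was above 0.01 without any single library (0.012 to 0.0463) and 0.0143 in the fit with the block. Tubb3, the neuronal tubulin, was -0.28 (edgeR adjusted p = 0.539). In the paired fit of the 6 libraries 4 of the list were higher in iHoxc9 and 9 in iHoxc10.

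Limb column genes that differed were mostly higher in iHoxc10. Of 21 tested, 7 were higher in iHoxc10 and 2 in iHoxc9 (11 and 4 in the paired fit), with a median of -0.35, and the 3 called were Lhx1, Aldh1a2 and Runx1. Lhx1 (chromosome 11, 84517975 to 84525534, GRCm38), a LIM homeodomain factor of lateral column neurons that project dorsally into the limb and of several interneuron classes, was at 3.76, 4.06 and 3.78 CPM in iHoxc9 and at 77.1, 66.2 and 55.3 CPM in iHoxc10. Control libraries lay between, at 15.2, 12.2 and 15.1 CPM. The 3 groups did not overlap, and the log2 fold change between the lines was -4.10 (standard error 0.16, edgeR adjusted p = 7.83e-14). Aldh1a2 (chromosome 9, 71215789 to 71296243), which encodes the enzyme that makes retinoic acid in lateral column neurons, was at 19.4, 27 and 18.5 CPM in iHoxc9, 203, 185 and 163 CPM in iHoxc10 and 35, 27.5 and 24.7 CPM in control. Only iHoxc10 stood high. Runx1, a runt-domain factor of some cervical motor neurons and of sensory neurons, was at 0.704, 0.795 and 0.756 CPM in iHoxc9, 7.63, 12.6 and 4.5 CPM in iHoxc10 and 7.13, 3.85 and 4.83 CPM in control (log2 fold change -3.44, standard error 0.35, edgeR adjusted p = 4.03e-07). Here iHoxc9 was the line that departed from control.

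Foxp1, the cofactor by which limb-level Hox proteins set up the lateral column, was at 111, 93.8 and 101 CPM in iHoxc9 and at 274, 245 and 191 CPM in iHoxc10, against 74.7, 51.1 and 46.3 CPM in control. Both lines lay above control and iHoxc10 above iHoxc9 (-1.22, edgeR adjusted p = 5.58e-05). Gfra1, a receptor for the glial neurotrophic factor GDNF, showed the same order (61.3 against 154 CPM, -1.33, edgeR adjusted p = 1.59e-06). Pou3f1, a POU factor of motor pools, was -1.22 (edgeR adjusted p = 0.000117). Sema3e, a semaphorin of motor pools, was -1.65, with an edgeR adjusted p of 0.00805 that was 0.0999 without the second iHoxc10 library. The edgeR adjusted p of Sema3e was 0.0321 and 0.0526 without the first and the third iHoxc9 library, and 0.0135 with library totals alone. In the opposite direction were Cdh8 (0.95), an adhesion molecule of motor pools, and Epha7 (0.71), a guidance receptor. Their edgeR adjusted p were 0.00191 and 0.00608. With a single library left out, Cdh8 passed only without the first iHoxc9 library (0.0105 to 0.0188 without any other). Epha7 passed only without the first iHoxc10 library (0.0118 to 0.077 without any other). With library totals alone the edgeR adjusted p of Epha7 was 0.0101. Etv4, the pool factor induced by GDNF, was -0.79 (edgeR adjusted p = 0.0124), and Ret, its receptor kinase, was -0.35 (edgeR adjusted p = 0.0857). Epha4, the receptor that steers axons dorsally, had 61.6 against 61.6 CPM and showed no detectable difference (standard error of the log2 fold change 0.21, edgeR adjusted p = 1).

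Genes of the thoracic and medial columns differed in both directions. Of 18 tested, 3 were higher in iHoxc9 and 2 in iHoxc10, and 1 of the latter passed in the fit with the block. Mecom, a zinc finger factor, was the only one called, at 23, 18 and 22.7 CPM in iHoxc9 and at 4.62, 5.27 and 4.25 CPM in iHoxc10 with 5.4, 5.12 and 3.74 CPM in control (log2 fold change 2.17, standard error 0.19, edgeR adjusted p = 5.18e-08). The iHoxc10 libraries lay within the range of control, and the iHoxc9 libraries above it. Zeb2, also a zinc finger factor, was 1.06 (edgeR adjusted p = 0.000933), and Lhx4 was described above. Smad9, a transducer of BMP signals that marks thoracic sympathetic motor neurons, was lower in iHoxc9 (0.243 against 0.817 CPM, -1.71, edgeR adjusted p = 0.000625). Nos1, the nitric oxide synthase of those neurons, was -1.28 (edgeR adjusted p = 0.00614, and 0.0103 with the block). Its edgeR adjusted p was above 0.01 without any single library (0.0133 to 0.0397). Etv1 (0.37, edgeR adjusted p = 0.427) and Bmpr1b (-0.07, edgeR adjusted p = 0.948) did not pass.

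**Figure D3:**
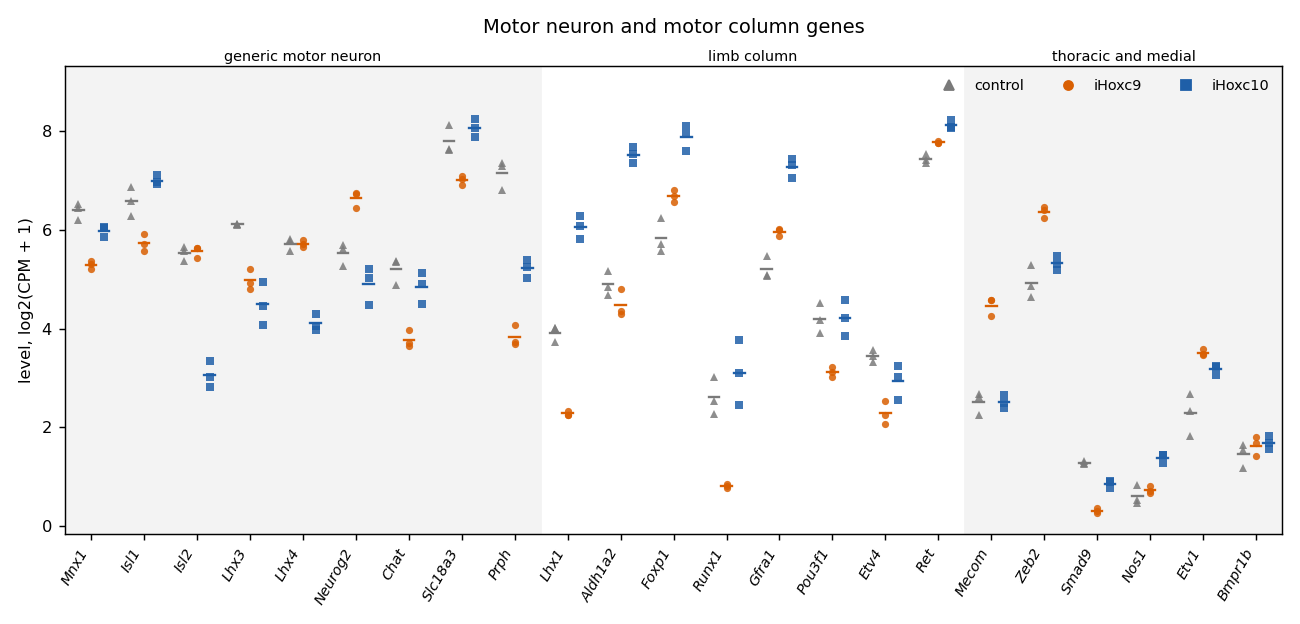
Levels (log2(CPM + 1), y axis) of motor neuron genes in control (grey), iHoxc9 (orange) and iHoxc10 (blue); each point is 1 library and bars are means of 3. Lhx1, Aldh1a2 and Foxp1 are highest in the blue libraries, while Isl2, Lhx4 and Mecom are higher in the orange ones.

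Transcription factors of spinal interneurons differed in both directions. Of 38 tested, 7 were higher in iHoxc9 and 3 in iHoxc10. Tlx3, a selector of excitatory dorsal interneurons, was at 7.0, 6.03 and 6.17 CPM in iHoxc9 and 0.315, 1.07 and 0.810 CPM in iHoxc10 (log2 fold change 3.12, standard error 0.32, edgeR adjusted p = 4.81e-07), and control, at 0.610, 0.462 and 0.786 CPM, overlapped iHoxc10. Sox14, a repressor in ventral interneurons, was low in both but higher in iHoxc9 (1.03 against 0.0859 CPM, 3.53, edgeR adjusted p = 0.000444). Dmrt3, which marks inhibitory dI6 interneurons, was the reverse, at 4.26, 3.38 and 3.82 CPM in iHoxc9 and 16.1, 16 and 17.1 CPM in iHoxc10 with 2.54, 3.27 and 2.51 CPM in control (log2 fold change -2.10, standard error 0.19, edgeR adjusted p = 9.1e-08). Irx3 (-1.56, edgeR adjusted p = 1.19e-07) and Lhx1, which is on this list as well, completed the genes higher in iHoxc10. The paired fit passed 10 higher in iHoxc9 and 8 in iHoxc10.

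Dbx1 and Lhx1 are shown with the 250 bases before their start sites, because they are regulators of interneuron identity that differed in opposite directions and had a promoter entry in RefSeq (GRCm38.p6). Capitals mark TTTAT or its reverse complement ATAAA, a core of sites bound by posterior Hox proteins. The Dbx1 promoter is chr7:49636836-49637085 and the Lhx1 promoter chr11:84525535-84525784, both on the minus strand and written 5′ to 3′.
Dbx1 promoter: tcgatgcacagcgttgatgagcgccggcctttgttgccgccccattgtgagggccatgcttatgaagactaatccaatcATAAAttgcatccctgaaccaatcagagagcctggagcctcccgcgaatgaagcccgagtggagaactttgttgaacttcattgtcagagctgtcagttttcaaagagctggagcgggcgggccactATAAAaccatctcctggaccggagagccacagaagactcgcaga
Lhx1 promoter: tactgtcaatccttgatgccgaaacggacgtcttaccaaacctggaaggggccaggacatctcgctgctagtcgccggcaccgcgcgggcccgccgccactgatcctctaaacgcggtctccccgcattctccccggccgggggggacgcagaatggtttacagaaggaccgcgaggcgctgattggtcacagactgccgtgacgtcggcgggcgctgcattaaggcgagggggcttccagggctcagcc
The Dbx1 window holds 2 matches, and the Lhx1 window 0. Each holds 1 match to TAAT or its reverse complement ATTA, the core shared by most homeodomain proteins, which is not in capitals and can overlap the longer word. A promoter entry was found for 14823 of 20944 tested genes and for 189 of the 274 called. TTTAT was present in either orientation in 27.6% of all tested promoters, 31.7% of the 104 of genes higher in iHoxc9 and 25.9% of the 85 of genes higher in iHoxc10. For TAAT the shares were 43.8%, 48.1% and 42.4%. The longer word TGATTTAT, or its reverse complement ATAAATCA, was in 79 of all tested promoters (0.533%), in 1 of the genes higher in iHoxc9 and in 0 of those higher in iHoxc10. A match in such a short window is a description of its letters and not a binding site.

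Dbx1 (chromosome 7, 49631499 to 49636835, GRCm38), the homeobox gene of the p0 progenitors that yield V0 interneurons, was at 16.3, 14.2 and 17.4 CPM in iHoxc9, 0.875, 0.537 and 0.851 CPM in iHoxc10 and 0.482, 0.501 and 0.524 CPM in control. The iHoxc9 libraries were all above 14 CPM and every other library below 1. The log2 fold change was 4.40 (standard error 0.33, edgeR adjusted p = 3.76e-09). Of 23 progenitor domain genes, Dbx1 and Pax6 (1.95, edgeR adjusted p = 1.4e-06), the homeobox gene of intermediate progenitors, were higher in iHoxc9. Higher in iHoxc10 were Irx5 (-1.63), Irx3, Shh (-2.11) and Ferd3l (-2.02), with edgeR adjusted p of 2.54e-08, 1.19e-07, 0.00203 and 0.00254. Shh, the ventral morphogen, was at 3.87, 8.36 and 3.14 CPM in iHoxc9 and 19.6, 31.2 and 16.3 CPM in iHoxc10. Its fold change was -1.81 without the second iHoxc10 library (edgeR adjusted p = 0.017). Without the first and the third iHoxc9 library it was -1.94 and -1.88 (edgeR adjusted p = 0.0158 and 0.018). Ferd3l, a bHLH repressor of the floor plate, had 0.407 against 1.7 CPM, and was -1.68 without the second iHoxc10 library (edgeR adjusted p = 0.0253). It was -1.86 and -1.90 without the first and the third iHoxc9 library (edgeR adjusted p = 0.0171 and 0.0161). With library totals alone it was -1.97.

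Factors of sensory neurons, some of which also serve in spinal interneurons, were mixed in direction, with 6 of 21 higher in iHoxc9 and 5 in iHoxc10. Shox2 (chromosome 3, 66971723 to 66981771), a homeobox gene that marks a class of excitatory interneurons as well as sensory neurons, was at 5.98, 5.59 and 4.78 CPM in iHoxc9, 0.0700, 0.179 and 0.0810 CPM in iHoxc10 and 0.193, 0.0385 and 0.225 CPM in control (log2 fold change 5.57, standard error 0.45, edgeR adjusted p = 1.47e-08). It was close to the limit of detection outside iHoxc9, and it overlaps Rsrc1. Pou4f3, a POU factor of sensory neurons, was at 2.78, 2.8 and 2.67 CPM in iHoxc9 and 0.140, 0.215 and 0.243 CPM in iHoxc10, and it had 0 counts in control (3.77, edgeR adjusted p = 7.88e-06). Phox2a, Hmx2 and Runx1 were among those higher in iHoxc10. Among factors of neuronal time and region, Mafa (0.833 against 7.46 CPM, -3.15, edgeR adjusted p = 2.59e-06) was higher in iHoxc10. Its relative Maf was higher in iHoxc9 (1.31, edgeR adjusted p = 0.000998, 0.0132 without the third iHoxc10 library), with Zfhx2 (1.25), Prox1 and Neurod1.

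The vesicular transporters of excitatory and of inhibitory transmitters differed in opposite directions. Slc17a6 (chromosome 7, 51621830 to 51671126), the vesicular glutamate transporter of most excitatory spinal neurons, was at 10.6, 14.9 and 10.1 CPM in iHoxc9, 0.595, 0.681 and 0.405 CPM in iHoxc10 and 0.225, 0.308 and 0.0749 CPM in control. All iHoxc9 libraries exceeded 10 CPM and no other reached 1, for a log2 fold change of 4.38 (standard error 0.32, edgeR adjusted p = 2.47e-09). Slc32a1, the vesicular transporter of GABA and glycine, was lower in iHoxc9, with 0.117, 0.0883 and 0 CPM against 0.560, 0.860 and 0.648 CPM (-3.21, edgeR adjusted p = 0.000229), near the level of 3 counts. The glycine receptor subunit Glra2 was higher in iHoxc10 (2.01 against 8.8 CPM, -2.13, edgeR adjusted p = 5.08e-05), and its fold change was -1.91 without the second iHoxc10 library. Of 27 genes of this list, which holds Slc17a6 too, 6 were higher in iHoxc10 and 2 in iHoxc9, the second being the receptor subunit Gabra4. Gabra4 passed no leave-one-out fit (edgeR adjusted p of 0.0175 to 0.0383) and not the block (0.0125). The paired fit passed 12 higher in iHoxc10 and 6 in iHoxc9.

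Of 25 glutamate receptor genes, 2 were higher in iHoxc9 and 4 in iHoxc10. Grm5 (chromosome 7, 87583981 to 88135063), a metabotropic receptor, was at 9.86, 6.5 and 7.88 CPM in iHoxc9 and 0.140, 0.143 and 0.0405 CPM in iHoxc10, with at most 0.0642 CPM in control (log2 fold change 6.14, standard error 0.45, edgeR adjusted p = 2.56e-09). Grin2c, an NMDA receptor subunit, was at 8.14, 11.6 and 8.24 CPM and 0.910, 0.860 and 0.527 CPM (log2 fold change 3.59, standard error 0.33, edgeR adjusted p = 9.56e-08), and control, at 3.28, 1.39 and 3.03 CPM, lay between. The NMDA subunit of young neurons, Grin2b (0.252 against 1.59 CPM, -2.66, edgeR adjusted p = 0.000902), and Grid1 (-1.15, edgeR adjusted p = 4.35e-05) were higher in iHoxc10, as were Grm8 and Grik3.

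Peptide genes differed as well. Adcyap1, which encodes the peptide PACAP, was at 46, 37.9 and 45.3 CPM in iHoxc9, 6.65, 8.03 and 5.02 CPM in iHoxc10 and 2.31, 0.886 and 2.28 CPM in control (log2 fold change 2.71, standard error 0.32, edgeR adjusted p = 4.15e-06). Both lines exceeded control, iHoxc9 by more. Sstr1, a somatostatin receptor, was at 0, 0.177 and 0.0796 CPM in iHoxc9 and 4.55, 7.02 and 2.47 CPM in iHoxc10, where control had 8.19, 4.24 and 4.98 CPM (log2 fold change -5.59, standard error 0.53, edgeR adjusted p = 1.34e-07). Its ligand Sst was far below control in both lines, at 0.391, 0.441 and 0.756 CPM in iHoxc9 and 2.66, 2.19 and 2.59 CPM in iHoxc10 against 166, 199 and 219.7 CPM, and still differed between them (-2.24, edgeR adjusted p = 1.13e-05). Npy, neuropeptide Y, was -2.88 (1.21 against 8.97 CPM, edgeR adjusted p = 3.24e-07) and Pnoc, the nociceptin precursor, -2.86 (0.350 against 2.65 CPM, edgeR adjusted p = 4.16e-05). Of 46 genes tested, 6 were higher in iHoxc10 and 2 in iHoxc9, Adcyap1 and Gal, and the median was -0.09.

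**Figure D4:**
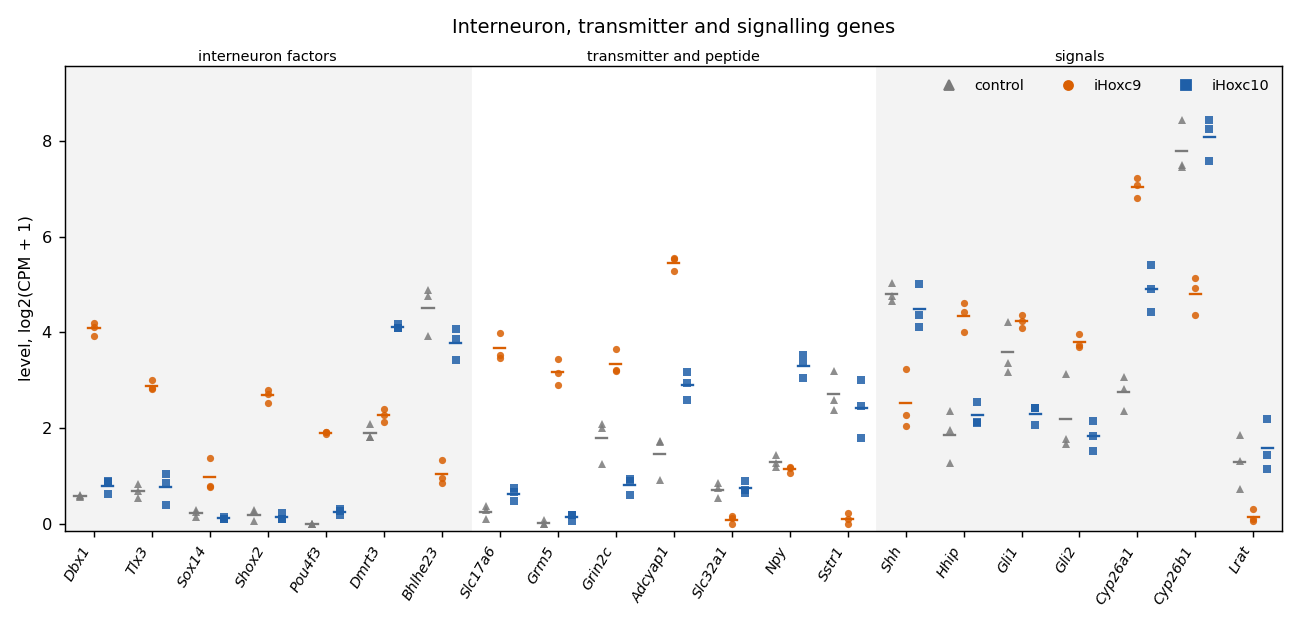
Levels (log2(CPM + 1), y axis) of interneuron, transmitter and signaling genes in control (grey), iHoxc9 (orange) and iHoxc10 (blue); each point is 1 library and bars are means of 3. Dbx1, Shox2, Slc17a6 and Grm5 rise above 2 on this scale in the orange libraries alone, while Bhlhe23, Sstr1 and Shh are lower in the orange libraries than in both others.

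The retinoid pathway differed in synthesis, storage and breakdown. Of 24 genes, 6 were higher in iHoxc10 and 2 in iHoxc9. Besides Aldh1a2, the called genes higher in iHoxc10 were Cyp26b1, a retinoic acid hydroxylase, and Lrat, which esterifies retinol for storage. Cyp26b1 was at 19.7, 29.3 and 33.9 CPM in iHoxc9, 189, 343 and 301 CPM in iHoxc10 and 345, 173 and 179 CPM in control (log2 fold change -3.33, standard error 0.28, edgeR adjusted p = 2.49e-08), so iHoxc9 alone was low. Lrat was at 0.0782, 0.235 and 0.0398 CPM and 1.23, 3.58 and 1.7 CPM (-4.04, edgeR adjusted p = 0.000114). The paralog Cyp26a1 went the other way, at 111, 148 and 134 CPM in iHoxc9, 20.5, 41.4 and 29 CPM in iHoxc10 and 7.42, 4.16 and 6.03 CPM in control (log2 fold change 2.11, standard error 0.21, edgeR adjusted p = 2.75e-07, and 1.90 without the first iHoxc10 library). Stra6l, a receptor for retinol-binding protein that was at most 0.187 CPM in control, was at 62.7, 60.8 and 56 CPM in iHoxc9 and 24.4, 25 and 24.1 CPM in iHoxc10 (1.29, edgeR adjusted p = 0.000199). The retinol carrier gene Rbp2 (-1.36) and the receptor Rarg (-0.91) were higher in iHoxc10, with edgeR adjusted p of 0.00147 and 0.00355. They were 0.0132 without the second iHoxc9 library for Rbp2 and up to 0.0214, without the first, for Rarg. The retinoic acid receptors Rara (0.19, edgeR adjusted p = 0.579) and Rarb (-0.46, edgeR adjusted p = 0.0264) did not pass.

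Several Hedgehog target and pathway genes were higher in iHoxc9, where Shh was lower. Of 16 tested, 5 were higher in iHoxc9 and only Shh in iHoxc10. Gli1, a transcription factor and target of the pathway, was at 17.8, 19.5 and 16.1 CPM in iHoxc9, 4.34, 3.19 and 4.34 CPM in iHoxc10 and 9.28, 17.5 and 8.05 CPM in control (log2 fold change 2.17, standard error 0.26, edgeR adjusted p = 5.25e-06). Hhip, an inhibitor that the pathway induces, was at 20.6, 23.3 and 15.1 CPM and 3.33, 4.87 and 3.4 CPM (log2 fold change 2.35, standard error 0.27, edgeR adjusted p = 2.59e-06). Gli2 was 2.31 (edgeR adjusted p = 0.000132), and the co-receptor Boc 1.77 (edgeR adjusted p = 9.08e-07), with Gli3 as the fifth. The medium of both lines contained the same Smoothened agonist.

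Progenitor and cell cycle genes leaned towards iHoxc9 by small amounts. Of 41 cell cycle genes, 8 were higher in iHoxc9 and 2 in iHoxc10. The median was 0.60, and 37 of the 41 had a positive log2 fold change. The paired fit of the 6 libraries passed 35 higher in iHoxc9 and 3 in iHoxc10. Birc5, a mitotic regulator, was at 24.7 against 15 CPM (0.72, edgeR adjusted p = 0.000933, 0.0105 without the first iHoxc10 library), and Cdkn2a, a cell cycle inhibitor, was 1.29 (edgeR adjusted p = 0.000362). The members higher in iHoxc10 were Ccnd1, which encodes cyclin D1, and Cdkn1c, an inhibitor expressed as cells leave the cycle. Ccnd1 was at 0.665, 1.32 and 1.07 CPM in iHoxc9, 13.7, 17.1 and 19.97 CPM in iHoxc10 and 16.4, 39.2 and 22.5 CPM in control (log2 fold change -4.02, standard error 0.29, edgeR adjusted p = 2.03e-09). Cdkn1c was -1.74 (edgeR adjusted p = 3.1e-05). Of 18 neural progenitor genes, 3 were higher in iHoxc9 (Sox2 0.69, Sox1 0.77 and Pax6) and 0 in iHoxc10 by edgeR, by DESeq2 or at an unadjusted p under 0.05, against 11 in iHoxc9 and 2 in iHoxc10 in the paired fit. The edgeR adjusted p of Sox1 was 0.00856, and it was above 0.01 without any single library (up to 0.0541) and 0.0159 with the block. That of Sox2 was 0.00191. It was 0.0175 and 0.0147 without the first and the second iHoxc9 library, and 0.0325 without the third iHoxc10 library. Summed over the progenitor list, levels were 2268 to 2383 CPM in iHoxc9 and 1721 to 1911 CPM in iHoxc10. The part of this difference in cycling and progenitor RNA in the other results was not tested.

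Synaptic genes leaned the opposite way. Of 41 genes of vesicles and release, 7 were higher in iHoxc10 and 1 in iHoxc9 (Nrxn3, which did not pass with the block), with a median of -0.43. Syt1, the calcium sensor of release, was at 41.8 against 86.1 CPM (-1.04, edgeR adjusted p = 5.08e-05), and Cplx1 was -1.08 (edgeR adjusted p = 0.000164). Syt4 was -2.01 and so at the edge of the threshold, with -1.85 without the first iHoxc10 library and -1.93 without the second iHoxc9 library. In the paired fit 26 were higher in iHoxc10 and 4 in iHoxc9.

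Channels divided by gene. Of 57 potassium channel genes, 5 were higher in iHoxc9 and 6 in iHoxc10, and of 30 sodium and calcium channel genes 2 and 3. Kcnk9, a background potassium channel, was at 0.156, 0.0883 and 0.159 CPM in iHoxc9 and 2.0, 2.72 and 1.99 CPM in iHoxc10 (log2 fold change -4.05, standard error 0.44, edgeR adjusted p = 1.22e-06). Scn7a, a sodium channel of atypical gating, was the reverse, at 3.21, 3.24 and 2.15 CPM and 0.175, 0.107 and 0.162 CPM (log2 fold change 4.24, standard error 0.43, edgeR adjusted p = 3.76e-07). Among calcium channel subunits Cacna2d2 (-1.30), Cacna1c (-1.25, with an edgeR adjusted p of 0.0124 without the first iHoxc10 library) and Cacna1h were higher in iHoxc10 and Cacnb2 (1.41) in iHoxc9. The potassium channel genes higher in iHoxc9 were Kcnf1, Kcnj2, Kcnip2, Kcnc2 and Kcns3.

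Matrix and cadherin genes differed in both directions. Of 56 integrin, laminin, collagen and other matrix genes, 8 were higher in iHoxc9 and 3 in iHoxc10. Itga1 (chromosome 13, 114958079 to 115101964), the collagen-binding integrin alpha 1, was at 3.48, 2.47 and 2.43 CPM in iHoxc9 and 0, 0.0717 and 0 CPM in iHoxc10, and its gene overlaps Pelo. With 234 counts against 2, the ratio of the levels was 112, with a 95% exact counting interval of 30.7 to 932 (6.60 on the log2 scale, edgeR adjusted p = 6.23e-07). Reln, the secreted guide of neuronal migration, was at 31, 37.1 and 23.7 CPM and 3.47, 5.34 and 2.39 CPM, with 1.51, 1.89 and 1.12 CPM in control (log2 fold change 3.03, standard error 0.28, edgeR adjusted p = 9.56e-08). Tnr, the matrix protein tenascin-R, was lower in iHoxc9, at 2.86, 3.03 and 2.43 CPM against 22.1, 18 and 12.9 CPM (log2 fold change -2.67, standard error 0.27, edgeR adjusted p = 4.71e-07). The other genes higher in iHoxc10 were Itga2 (-2.37) and Lama2. Of 29 cadherin genes, 4 were higher in each line, led by Pcdh11x for iHoxc9 (6.84 against 1.03 CPM, 2.73, edgeR adjusted p = 3.96e-07) and Cdh22 for iHoxc10 (-1.28, edgeR adjusted p = 0.000275). With them went Pcdh17, Cdh8 and Cdh9 in iHoxc9, and Pcdh19, Pcdh7 and Cdh10 in iHoxc10.

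Among guidance genes of the Eph, Slit, Robo and netrin families, 4 of 42 were higher in iHoxc9 and 5 in iHoxc10. Draxin, a secreted repellent of spinal axons, was the only one called, at 17.6, 19.4 and 16.9 CPM in iHoxc9, 94.1, 99.7 and 89.4 CPM in iHoxc10 and 28.5, 23.4 and 28.8 CPM in control (log2 fold change -2.39, standard error 0.14, edgeR adjusted p = 1.14e-10). Unc5a, a netrin receptor, was -1.39 (edgeR adjusted p = 2.5e-05), and Epha3, an ephrin receptor of medial column neurons, 1.86 (edgeR adjusted p = 1.84e-06). The others were Epha7, Epha8 and Dcc for iHoxc9 and Epha10, Ntng2 and Ephb1 for iHoxc10. Of 31 semaphorin, plexin and neuropilin genes, Sema3c (1.53), Sema3a (1.76) and Plxna2 (1.14) were higher in iHoxc9, and Sema3e and Sema7a (-0.90) in iHoxc10. Sema7a had an edgeR adjusted p of 0.0107 without the first iHoxc9 library and 0.0103 without the second iHoxc10 library.

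Neurotrophic factor receptors and ligands split into named partners. Gfra3, the receptor for artemin, was at 18.8, 18.6 and 23.3 CPM in iHoxc9, 2.52, 2.9 and 2.96 CPM in iHoxc10 and 2.35, 3.0 and 2.4 CPM in control (log2 fold change 2.85, standard error 0.22, edgeR adjusted p = 7e-09). Gfra2, the receptor for neurturin, was 1.86 (edgeR adjusted p = 4.01e-06), and Bdnf, a ligand, 2.44 (1.35 against 0.244 CPM, edgeR adjusted p = 0.000133). With Ntrk2 and Alk they made 5 of 23 higher in iHoxc9, against 2 in iHoxc10, Gfra1 among them.

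In the Wnt pathway 7 of 52 genes were higher in iHoxc9 and 1 in iHoxc10, and 21 and 6 in the paired fit. Lgr5, a receptor for R-spondins, was at 3.36, 4.36 and 2.79 CPM and 0.595, 0.931 and 0.689 CPM (log2 fold change 2.24, standard error 0.29, edgeR adjusted p = 1.46e-05), and the ligand Wnt5a was 1.45 (edgeR adjusted p = 4.21e-05). The inhibitor Dkk2 was 3.98 at a low level (1.03 against 0.0592 CPM, edgeR adjusted p = 0.000103). The gene higher in iHoxc10 was the ligand Wnt7b (2.97 against 14 CPM, -2.22, edgeR adjusted p = 1.71e-05). BMP and TGF-beta genes had 5 of 53 higher in iHoxc9 and 3 in iHoxc10. The latter were Id4, a target of BMP signals (12.7 against 55.6 CPM, -2.13, edgeR adjusted p = 7.07e-05), the ligand Bmp6 (-2.39, edgeR adjusted p = 0.000143) and Smad9, and the former included Gdf6, Bmp3, Fst and Fstl5. FGF genes had 3 and 3 of 32, led by the ligand Fgf10, at 4.19, 3.38 and 4.14 CPM in iHoxc9 and 0.700, 0.358 and 0.527 CPM in iHoxc10 (log2 fold change 2.87, standard error 0.33, edgeR adjusted p = 2.22e-06), with Spry2 and Fgfrl1 beside it and Dusp6, Fgfr4 and Spry1 higher in iHoxc10. The edgeR adjusted p of Dusp6 was 0.0138 without the second iHoxc9 library and 0.012 without the third. That of Fgfr4 was 0.0113 without the first iHoxc9 library and 0.0104 without the third. Spry1 did not pass with the block. Of 23 Notch genes, Hey2 (1.33), Jag1 (1.00) and Mfng (0.79) were higher in iHoxc9, and each was above an adjusted p of 0.01 in 5 or 6 of the 6 leave-one-out fits (up to 0.0519).

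Imprinted genes, which are expressed from 1 parental copy, differed in both directions, with 5 of 40 higher in iHoxc9 and 4 in iHoxc10. Peg10 was at 808, 796 and 665 CPM in iHoxc9 and 206, 228 and 156 CPM in iHoxc10 (1.94, edgeR adjusted p = 1.97e-06), and Grb10 at 52.1, 94.9 and 60.4 CPM and 221, 200.4 and 247 CPM (-1.69, edgeR adjusted p = 4.74e-06). Sgce, Mest, Plagl1 and Impact were the others higher in iHoxc9, and Blcap, Cdkn1c and Igf2 in iHoxc10. Genes of axial timing and the CDX factors had 2 of 15 higher in iHoxc9, Hmga2 (1.56, edgeR adjusted p = 2.11e-05) and Cyp26a1.

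Several of the largest differences lay in genes of no list. Tmem163, a zinc transporter of vesicles, was at 51.6, 58.1 and 49.1 CPM in iHoxc9, 3.36, 4.23 and 2.92 CPM in iHoxc10 and 2.15, 1.89 and 2.13 CPM in control (log2 fold change 3.91, standard error 0.23, edgeR adjusted p = 1.11e-10). Gnat3, the taste G protein gustducin, was at 15.7, 10.2 and 15.7 CPM in iHoxc9 and 0.595, 0.645 and 0.770 CPM in iHoxc10 (log2 fold change 4.37, standard error 0.44, edgeR adjusted p = 3.96e-07), and Cnmd, the secreted protein chondromodulin, at 7.86, 9.06 and 9.67 CPM and 0.350, 0.466 and 0.851 CPM (log2 fold change 4.01, standard error 0.27, edgeR adjusted p = 1.15e-09). Mybpc1 (5.06), Dcdc2a (4.89), Dgkb (4.53), the calcium buffer Calb1 (4.84), Slitrk6 (4.30), Nrn1 (4.22), Spata48 (4.07), Olfm3 (4.04) and the zinc finger factor Sp9 (3.82) were also among the 20 largest of 105 eligible genes on that side, with means of 1.22 to 5.65 CPM in iHoxc9.

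On the iHoxc10 side, Cbln4, a secreted synapse organizer, was at 1.1, 1.12 and 0.677 CPM in iHoxc9, 18.2, 20.5 and 11 CPM in iHoxc10 and 5.2, 1.27 and 2.88 CPM in control (log2 fold change -4.09, standard error 0.38, edgeR adjusted p = 1.1e-07). Sfmbt2, a Polycomb protein, was at 1.21, 1.56 and 1.39 CPM, 27.2, 18 and 17.8 CPM and 12.7, 7.09 and 6.33 CPM (log2 fold change -3.91, standard error 0.27, edgeR adjusted p = 1.17e-09), with control between the lines in both genes. Bhlhe23, a bHLH factor, was lower in iHoxc9 as well (1.09 against 13 CPM, -3.57, edgeR adjusted p = 8.65e-08). Tbx20, a T-box factor of visceral motor neurons, had 2 counts in iHoxc9 and 83 in iHoxc10, and the ratio of the levels was 43.3, with a 95% exact counting interval of 11.6 to 363 (-5.19, edgeR adjusted p = 2.63e-06). Atp2a3 (-4.32), D630039A03Rik (-4.13), Sp5 (-3.73), Rpp25 (-3.36) and Fbxo2 (-3.32) were others on that side, where 101 genes were eligible.

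**Figure D5:**
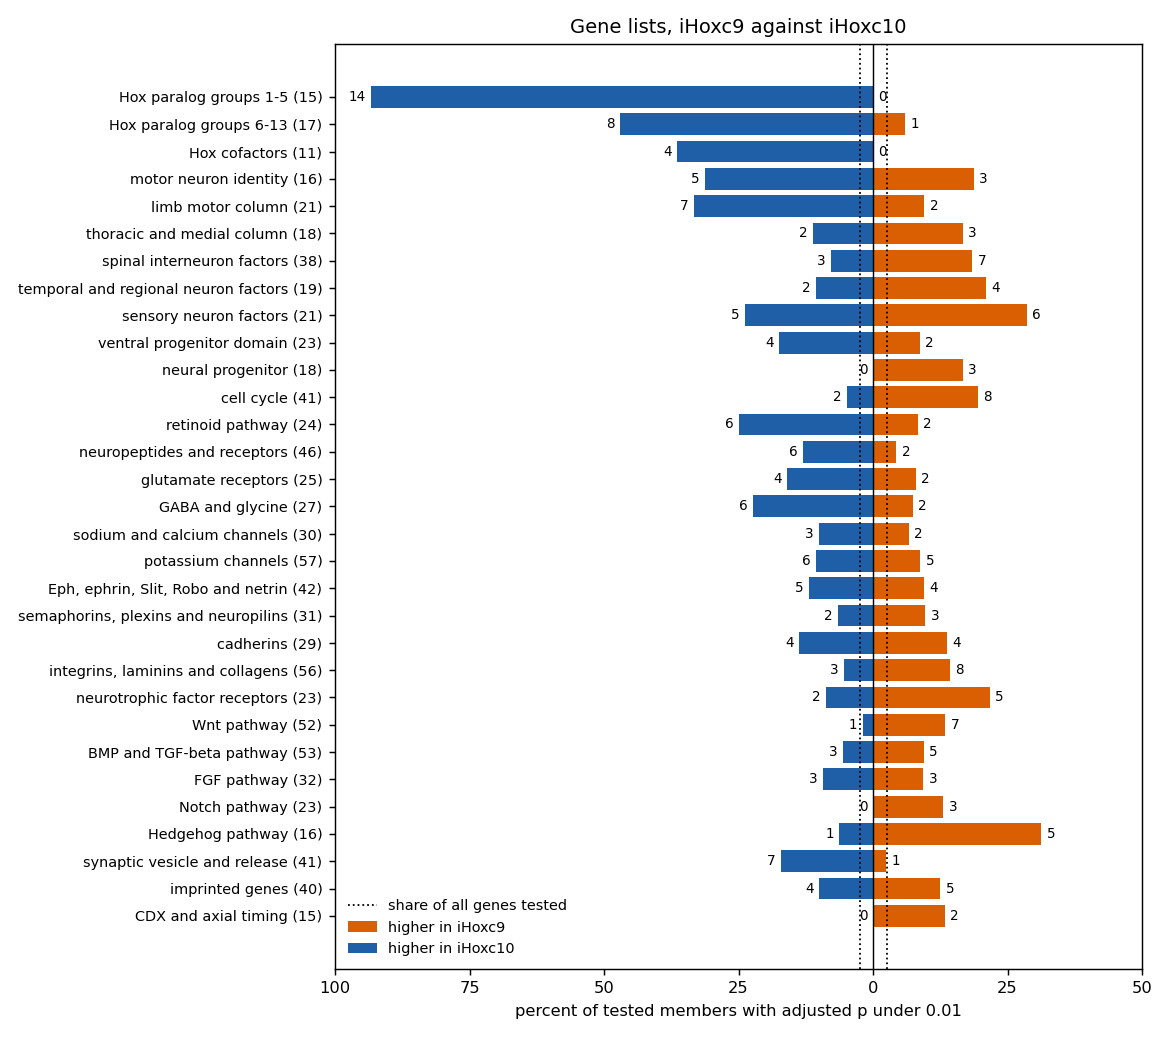
Share of each list's tested members (number in parentheses) with an edgeR adjusted p under 0.01, to the right where higher in iHoxc9 (orange) and to the left where higher in iHoxc10 (blue); the number of genes stands at each bar, and dotted lines mark the 2.6% and 2.4% of all genes. The bar of Hox paralog groups 1 to 5 is the longest, with 14 genes on the iHoxc10 side and 0 on the other.

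Markers of other cell types were low or absent for most types in both lines. Pluripotency markers summed to 2.78 to 3.33 CPM over the iHoxc9 libraries and 1.86 to 2.39 CPM over the iHoxc10 libraries, and 0 of 15 passed edgeR's adjusted p or DESeq2's, against 1 higher in iHoxc9 and 0 in iHoxc10 at an unadjusted p under 0.05. Endothelial markers summed to 7.08 to 9.09 and 6.16 to 7.5 CPM with 0 of 14 (unadjusted 0 and 0, DESeq2 0 and 0), and blood and microglial markers to 0.665 to 1.47 and 1.83 to 2.07 CPM with 0 of 11 (unadjusted 0 and 3, DESeq2 0 and 1). Ptprc, Gata1 and Gfap, defining markers of blood and astrocytes, were at 0 counts in all 6 libraries. Mesoderm and mesenchyme markers summed to 10.3 to 16.1 and 7.94 to 10.2 CPM, and 3 of 16 passed. These were the collagens Col3a1 (3.12 against 0.427 CPM, 2.89) and Col1a1 (0.922 against 0.0966 CPM, 3.19), higher in iHoxc9 with the matrix genes, and the factor Twist1 (0.0492 against 0.328 CPM, -2.70), lower in iHoxc9. Col1a1 had an edgeR adjusted p of 0.0163 to 0.0187 without any of 3 libraries, and Twist1 of 0.0136 to 0.0334 without any of 4. Muscle markers summed to 3.83 to 5.25 and 4.87 to 5.15 CPM, with Tnnt1 the 1 of 11 that passed (-1.08, edgeR adjusted p = 0.00705, and up to 0.0565 in the leave-one-out fits).

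Endoderm and epithelial markers summed to 17.8 to 34.9 CPM in iHoxc9 and 25.5 to 43 CPM in iHoxc10. Of 13 tested, Gata6 was higher in iHoxc9 (2.15 against 0.365 CPM, 2.54, edgeR adjusted p = 1.17e-05), and Foxa1, which is also a floor plate gene, in iHoxc10 (3.26 against 9.79 CPM, -1.57, edgeR adjusted p = 0.00546, and 0.0571 without the second iHoxc10 library). The edgeR adjusted p of Foxa1 was 0.03 and 0.0368 without the first and the third iHoxc9 library. It was 0.0125 with library totals alone and 0.0101 with the stricter filter on low counts. Neural crest and glial markers summed to 79.4 to 83.2 and 61 to 72.3 CPM. Of 16, Sox10 (0.135 against 1.07 CPM, -2.89, edgeR adjusted p = 0.00014) and Tfap2b (0.0361 against 0.379 CPM, -3.27) were higher in iHoxc10, and 1 gene was higher in iHoxc9. Tfap2b passed neither DESeq2's test (adjusted p of 0.017) nor 5 of the leave-one-out fits (up to 0.0348). The part of these markers in the other results was not tested.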

How the data were processed

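Polyadenylated RNA of day 4 embryoid bodies was sequenced single-end from stranded libraries. The authors aligned reads to mm10 with STAR 2.7.0c and deposited raw read counts per RefSeq gene made with featureCounts, and submitters' processing notes also name Picard 2.8.2 and DESeq2 1.20.0. The strand setting of the counting is not given in the sources used here. The deposited counts cover 27179 genes, of which 25275 matched a symbol by identifier. Replicates are independent differentiations per the study's methods.

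Counts of all 18 libraries were fitted in 1 model with group as the term (edgeR 4.0.16 quasi-likelihood test, TMM factors, R 4.3.3, 12 residual degrees of freedom), and the contrast was iHoxc9 minus iHoxc10. The spread of each gene was therefore shared by all groups, not taken from the compared lines alone. Chi-square per degree of freedom between replicates reached 234 in the day 2 libraries, 155 in control and 75.4 in iHoxc8, against 33.8 in iHoxc10. An unpaired fit of only the 6 libraries passed 2229 genes at the adjusted p alone, against 1046 here. Genes with at least 1 count in any induced library were tested, and p-values were adjusted by Benjamini-Hochberg over all 20944. Standard errors are the fold change divided by the root of the F statistic. Levels are TMM-normalized CPM. Ratios of low counts carry 95% exact counting intervals. Alternatives were DESeq2 1.42.0, 2 other scalings, 2 other filters, only the 6 libraries, the replicate block with and without the others, each replicate left out, and 2 other fold change thresholds. Where a replicate was left out, the spread was pooled over all groups. On simulated counts with 200 of 20411 genes changed by a log2 fold of 3, both tools recovered 99.5% and called 0 others. The changed genes were drawn only from genes with higher counts. Simulated libraries were drawn independently with edgeR's own estimates of the spread, without pairing of replicates. The simulation therefore cannot show how the tools perform on genes with few counts or on paired libraries.

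Deviations from the group means correlated at 0.585, 0.478 and 0.659 between libraries of the 2 lines with the same number from the labels, and at 0.0245 or below between the rest, so the numbers were taken to pair the samples. Deviations within a group cancel out for each gene, so the low values of the rest follow in part from the high ones. They are not separate evidence of pairing. The main fit did not use the pairs. The comparison and the gene lists were chosen with earlier results of these data known. Named genes were all Hox genes and Lhx1, the 20 called genes of largest change in each direction with a mean of at least 1 CPM in the higher line and no overlap, the called members of each list, up to 4 members of each list with the smallest adjusted p, any member of the motor neuron, column, cofactor and retinoid lists, and markers of other cell types. Members named only to complete a small count, and Hprt, Spon1, Foxa2, Ntn1 and Slit1, were chosen after their values were seen. Promoter sequences are those of RefSeq GRCm38.p6. Some genes that meet the rule are not reported here.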

Additional observations from a re-analysis of the deposited data

Results flagged for a closer look

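Of the called named genes, 6 lay on opposite sides of the control neurons in the 2 lines by more than 1 on the log2 scale and past the adjusted p in each line, and the difference between the lines, which the iHoxc9 minus iHoxc10 contrast tests directly, passed as well. The control libraries are shared by both comparisons and came from another line and run. Lhx1 was -1.87 from control in iHoxc9 and 2.22 in iHoxc10, a difference of -4.10. Cbln4 was -1.69 and 2.39 (difference -4.09), Sfmbt2 -2.64 and 1.27 (difference -3.91), and Tnr -1.38 and 1.29 (difference -2.67). In the other direction Cnmd was 2.76 and -1.25 (difference 4.01) and Grin2c 1.86 and -1.73 (difference 3.59). No outlier test was run on groups of 3 libraries.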

How the results depend on the processing

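The count of 274 called genes was 267 to 356 under the other tests, scalings and library sets, apart from 260 with the stricter filter on low counts, and 225 to 258 when 1 library was left out (111 to 138 higher in iHoxc9 and 97 to 139 in iHoxc10). A fold change threshold of 1 gave 701 genes (365 and 336), and none gave 1046 (544 and 502). Leave-one-out fits called 96 to 102 of the 108 called named genes and 77 to 84 of the 86 called list members. At the adjusted p alone they passed 671 to 769 genes in place of 1046, and without the first iHoxc9 library 671. DESeq2 passed 1534, only the 6 libraries 2229, and the paired fit of those 5807. Of the 108 called named genes, 86 held in all 14 alternatives and 0 of the named genes reversed. Besides those given with their results, calls lost without at least 1 library included those of Hmx2, Tacr1, Kcnc2, Kcnf1, Kcnq3, Kcns3, Itga8, Rspo3 and Fst.

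With the replicate block 267 genes were called, 142 higher in iHoxc9 and 125 in iHoxc10. Of the genes in the text Gabra4 and Syt4 lost their call, Mnx1, Nos1, Sox1, Nrxn3, Impact, Neurod1 and Spry1 were no longer under the adjusted p of 0.01, and Etv4 came under it, and the block changed no other call of a gene in the text. In the paired fit of the 6 libraries, the members at the adjusted p (higher in iHoxc9 and in iHoxc10) not given in the report numbered, for thoracic and medial column 7 and 6, temporal and regional factors 10 and 6, sensory factors 10 and 8, progenitor domains 5 and 4, retinoid pathway 2 and 12, neuropeptides 4 and 10, glutamate receptors 4 and 12, sodium and calcium channels 3 and 12, potassium channels 11 and 18, Eph, Slit and netrin families 8 and 16, semaphorins and receptors 7 and 14, cadherins 7 and 9, matrix genes 18 and 9, neurotrophic factors 9 and 5, BMP and TGF-beta 13 and 10, FGF 10 and 7, Notch 10 and 6, imprinted genes 14 and 11, axial timing 7 and 2 and blood markers 0 and 3. Depth limits genes near 0.0883 to 0.122 CPM, the level of 3 counts.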

Other observations

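Besides Shh, Ferd3l and Foxa1, which were lower in iHoxc9 and lost their call or their adjusted p without the second iHoxc10 library, 4 other genes of the floor plate, the ventral midline of the cord, were looked up after the results were seen. Spon1, which encodes F-spondin, was at a mean of 72.8 CPM in iHoxc9 and 190.3 CPM in iHoxc10, a log2 fold change of -1.39 (edgeR adjusted p = 0.00044). Foxa2, the factor that specifies the floor plate, was at 16.8 and 18.7 CPM (-0.15, edgeR adjusted p = 0.904). Ntn1, the netrin gene, was at 260.1 and 432.4 CPM (-0.73, edgeR adjusted p = 0.065), and Slit1, a repellent, at 65.2 and 140.2 CPM (-1.10, edgeR adjusted p = 0.0106).

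Hprt, the gene at whose locus both transgenes sit, was at 8.26 CPM in iHoxc9 and 18.1 CPM in iHoxc10, a log2 fold change of -1.13 (edgeR adjusted p = 5.96e-05).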
